A study of Danio rerio with 4 samples.

Results

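Wnt pathway genes were examined in GFP+ cells sorted from whole zebrafish embryos at 3 days post fertilization (dpf) and sequenced as single cells with the 10x Genomics Chromium system. A gene was a member if its symbol began with wnt, fzd, axin, dkk, sfrp or dvl, or was lef1, tcf7, lrp5, lrp6, reck or adgra2, and this rule used no measured value. It gave 63 of the 25432 annotated genes, with 62 distinct symbols because wnt8a is listed under 2 identifiers. The members were 26 Wnt ligands, 14 Frizzled receptors, 4 co-receptors (lrp5, lrp6, adgra2 and reck), 7 cytoplasmic components (Axin and Dishevelled genes), 2 nuclear factors (lef1 and tcf7) and 10 secreted inhibitors (Dickkopf and sFRP genes).

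The flt1-/- group (2 libraries) carried the flt1ka604 allele and the WT group had 2 libraries. Both groups carried the Tg(kdrl:EGFP)zf531Tg reporter, in which the kdrl promoter drives EGFP in endothelial cells, and every cell was sorted on that signal. The study's methods give its kdrl:EGFP line under another allele name. Flt1 is a receptor that binds Vegfa and limits its availability to other receptors. Nothing in the labels says that libraries of a genotype came from separate clutches, so p-values measure only the spread between these libraries.

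Secreted Wnt ligands bind Frizzled receptors together with the Lrp5 and Lrp6 co-receptors, and Dishevelled proteins then block a destruction complex that is scaffolded by Axin. Stabilized β-catenin enters the nucleus and works with Lef1 and other TCF proteins, and axin2 and lef1 are themselves widely used targets of this signal. In the vertebrate brain, neural Wnt7 ligands act on endothelial cells through Frizzled receptors with Adgra2 (Gpr124) and Reck, a pair that is known for its part in brain angiogenesis and in the blood-brain barrier. Endocardial Wnt ligands are known for roles in heart valve development.

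Called cells numbered 1190 to 3261 per library with 16828951 to 33837917 unique molecular identifiers (UMIs, each standing for 1 captured transcript), and 737 to 2065 cells per library passed the limits on genes and mitochondrial share. Library pairs shared at most 4 barcodes. flt1, the mutated gene, was at 369 and 306 normalised counts (CPM, the UMIs of a gene per 1000000 UMIs) in flt1-/- blood endothelial cells, against 396 and 324 CPM in WT blood endothelial cells, and since a 3′ tag can lie outside a mutation this does not check the allele. Cells were clustered with all members left out, and classes were named "-like" from marker genes. Each level below is the CPM of the UMIs summed over the cells of a class in 1 library, so a higher level can mean more positive cells or more transcripts per cell.

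The classes held 181 brain capillary-like, 180 arterial-like, 196 venous-like, 142 lymphatic-like and 369 endocardial-like cells among 1240 endothelial cells, beside 2583 blood cells and 1328 cells of other classes. The brain capillary-like name has limits. Its cells were above the other endothelial cells in all 4 libraries for 4 of 10 brain capillary markers, for example abcb4 (40.6 against 4.51 CPM on average), a drug efflux pump, and slc7a5 (35.7 against 2.15 CPM), an amino acid transporter. On the same list slc3a2b (8.53 against 38.7 CPM), slc16a1b (4.96 against 9.91 CPM) and slc3a2a (15.3 against 21.2 CPM) were higher in none of the 4 libraries. mfsd2aa, a lipid transporter of barrier endothelium, had 0 UMIs in brain capillary-like cells, but averaged only 0.303 CPM in the other endothelial cells. plvapb, a gene of fenestrated vessels, averaged 1800 CPM in brain capillary-like cells against 454 CPM in the other endothelial cells. plvapa, which was checked beside it, went the other way (6.64 against 27.6 CPM) and was higher in none of the 4 libraries. No brain capillary marker was among the 10 genes with the largest fold that defined this cluster. The other names also rest on part of their lists. Markers higher in all 4 libraries were 5 of 9 arterial, 5 of 8 venous, 6 of 7 lymphatic and 6 of 9 endocardial ones.

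Of the 63 members, 60 had at least 1 UMI in the kept cells and 48 had at least 1 in endothelial cells, and 27 had at least 20 UMIs there. Frizzled receptors gave the most UMIs in endothelial cells (3956), followed by cytoplasmic components (2143), ligands (1162), co-receptors (855), nuclear factors (401) and secreted inhibitors (259). Only 12 of the 26 ligands were seen at all in endothelial cells, whereas all 4 co-receptors and 13 of the 14 Frizzled receptors were. wnt1, wnt10b and one wnt8a entry had 0 UMIs in all kept cells.

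**Figure D1:**
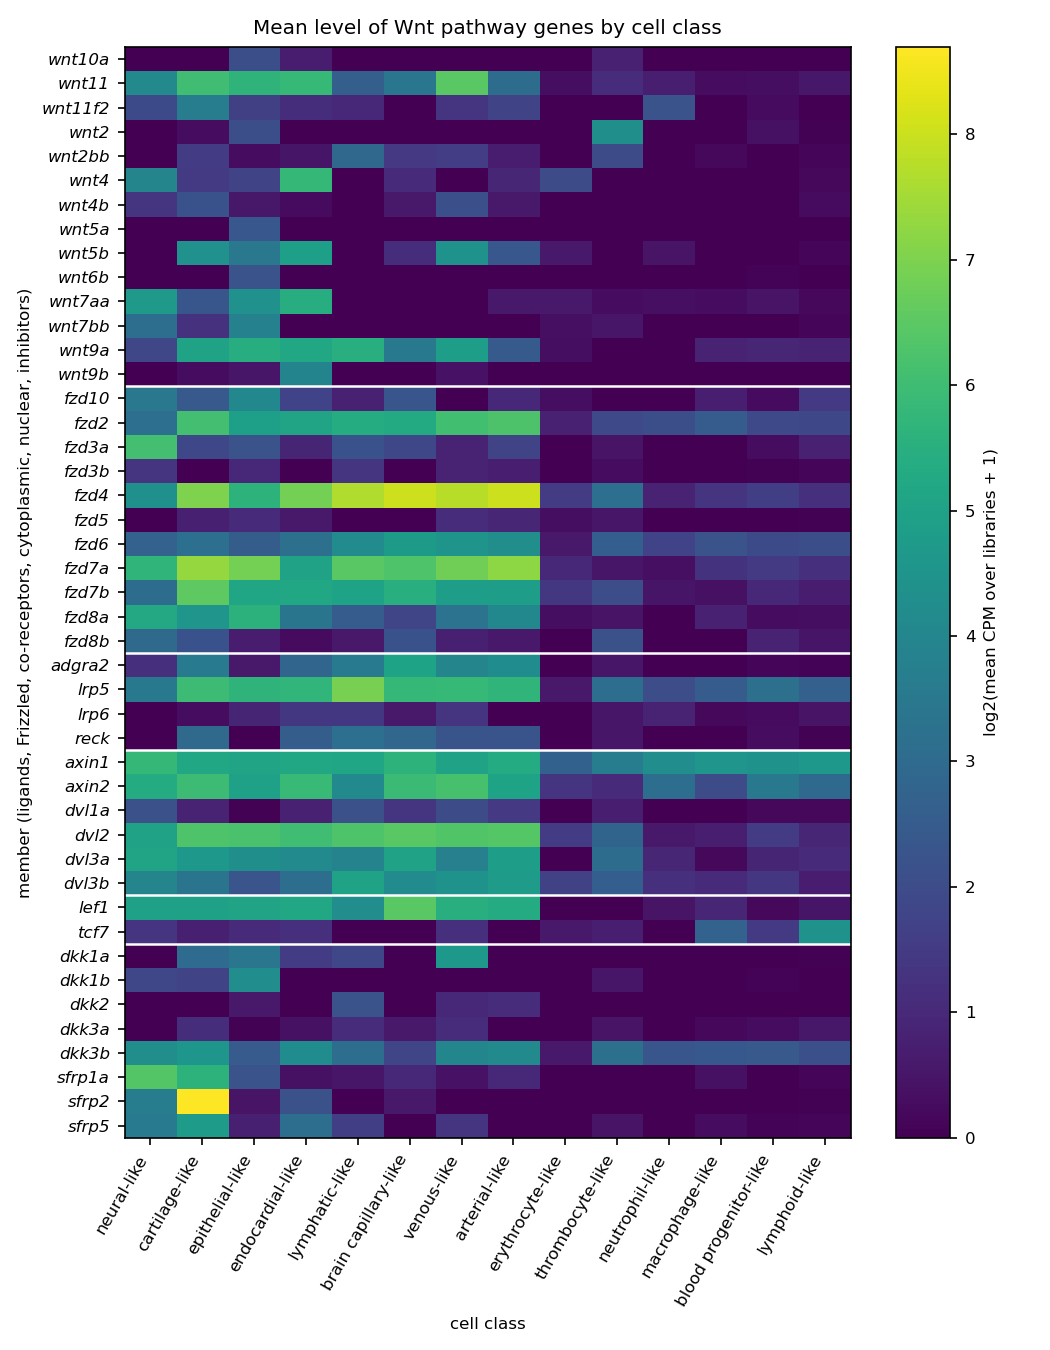
Mean level of each Wnt pathway gene with at least 20 UMIs (rows, grouped by role) in 14 cell classes (columns), as log2 of the mean CPM over libraries plus 1. fzd4 gives a bright row across the 5 named endothelial classes (mean 118 to 263 CPM), and tcf7 is brightest in lymphoid-like cells (20.4 CPM).

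fzd4, a Frizzled receptor that in mammals also mediates Norrin signalling in retinal vessels, had the highest mean level of all members in each of the 5 named endothelial classes. Its level in the flt1-/- and WT libraries was 227, 211, 371 and 242 CPM in brain capillary-like cells and 159, 205, 150 and 345 CPM in venous-like cells. Arterial-like cells had 168, 343, 263 and 271 CPM. It was 190, 195, 250 and 168 CPM in lymphatic-like cells and 64.1, 179, 78.5 and 150 CPM in endocardial-like cells. The first 4 classes overlapped in their ranges, and endocardial-like cells had the lowest mean (118 ± 55.3 CPM, SD, n = 4). dvl2, a Dishevelled gene that relays the signal from the receptor, was among the 5 highest members in each of these 5 classes, with means of 64.0 to 87.5 CPM.

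fzd2, a Frizzled receptor, was among the 5 highest members in arterial-like cells only of these classes, at 148 and 31.0 CPM in flt1-/- and 89.9 and 36.9 CPM in WT libraries. In arterial-like, venous-like, brain capillary-like and lymphatic-like cells alike, the libraries numbered 1 of both genotypes were above the libraries numbered 2. In venous-like cells, for example, fzd2 was at 108 and 29.4 CPM in flt1-/- and 95.6 and 30.9 CPM in WT libraries. There the cell mix differed too. A subcluster led by cxcl12a and sele averaged 143 CPM (n = 2). It held 64 of 101 and 8 of 40 flt1-/- and 12 of 25 and 3 of 30 WT venous-like cells. The subcluster led by lyve1a had the opposite order, with 9.72 and 38.8 CPM in flt1-/- and 23.9 and 33.8 CPM in WT libraries. The part of this mix was not tested. Blood classes carried less of the pathway, and axin1 was the highest member in 5 of the 6 blood classes, with 24.2 ± 6.85 CPM in lymphoid-like cells as its highest mean there. In thrombocyte-like cells wnt2 had a higher mean than axin1.

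At the cell level, fzd4 had a UMI in 71.8% of brain capillary-like cells (exact Clopper-Pearson 95% interval 64.7 to 78.2%, 181 cells with a median of 6632 UMIs). The share was 2.17% in erythrocyte-like cells (0.595 to 5.47%, 184 cells, median 19051 UMIs), which should lack the receptor and show the level of free RNA. With each cell thinned to 1000 UMIs the shares were 25.4% and 0.546%. These intervals cover counting error only. lrp6, the second Lrp co-receptor, was near the detection limit with 13 UMIs in all endothelial cells, against 649 for lrp5.

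Brain capillary-like cells differed from the other blood endothelial cells in lef1, which was higher, and in fzd7a, which was lower. lef1 encodes a nuclear partner of β-catenin. It was at 102 and 54.3 CPM in flt1-/- and 114 and 80.6 CPM in WT brain capillary-like cells, against 43.8, 40.8, 31.4 and 28.3 CPM in other blood endothelial cells of the same libraries. The lowest of the 4 brain capillary-like values was above the highest value of the other cells, and the means were 87.5 ± 26.0 and 36.1 ± 7.37 CPM (SD, n = 4). lef1 rose by 1.24 on the log2 scale (SE 0.258, 2.36-fold), with an adjusted p of 0.0019 by the quasi-likelihood test of edgeR, adjusted by Benjamini-Hochberg across the 5019 genes tested. Against venous-like cells alone the log2 difference was 0.96 (adjusted p = 0.0572), and against arterial-like cells alone it was 1.18 (adjusted p = 0.018), 2 comparisons that were added after seeing the data. The venous-like subcluster led by lyve1a had 58.3, 68.9, 47.8 and 56.3 CPM of lef1. In the second flt1-/- library this was above the brain capillary-like value. The venous-like subcluster led by cxcl12a and sele averaged 23.4 CPM (n = 2).

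fzd7a encodes a Frizzled receptor. It had 62.8, 90.5, 108 and 47.5 CPM in brain capillary-like cells, against 150, 129, 135 and 120 CPM in other blood endothelial cells. All 4 values were below all 4 of the other cells, and fzd7a fell by 0.78 on the log2 scale (SE 0.213, adjusted p = 0.0183 by edgeR). The call did not hold without the first flt1-/- library (log2 -0.65, adjusted p = 0.132), without the second WT library (log2 -0.61, adjusted p = 0.1) or in DESeq2 (adjusted p = 0.145). It did not hold against venous-like cells alone either (log2 -0.54, adjusted p = 0.197 by edgeR). The venous-like subcluster led by lyve1a averaged 75.1 CPM of fzd7a, near the 77.1 CPM of brain capillary-like cells. The subcluster led by cxcl12a and sele averaged 164.5 CPM (n = 2).

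Of the 63 members, 12 had enough UMIs to be tested in this comparison, and 1 was higher and 1 lower. Over all 5019 genes tested, 5.36% were higher and 4.7% lower in brain capillary-like cells. The median log2 difference was 0.21 over the 12 members and -0.02 over all genes. fzd4 averaged 263 and 246 CPM in brain capillary-like and other blood endothelial cells, lrp5 53.9 and 53.6 CPM, and dvl2 87.5 and 83.2 CPM, and none of these 3 passed the test.

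axin2, a feedback inhibitor that is also a target of the pathway, was at 53.2, 30.2, 108 and 47.5 CPM in brain capillary-like cells, against 28.7, 58.1, 48.1 and 44.1 CPM in other blood endothelial cells. The groups overlapped (log2 0.29, SE 0.305, adjusted p = 0.68 by edgeR). When the class was instead taken as the top 25% by a brain capillary marker score within each library, axin2 rose by 1.64 on the log2 scale (adjusted p = 0.0134) and lef1 by 2.42 (adjusted p = 0.000406), while fzd7a was at -0.75 (adjusted p = 0.132). axin1, the constitutive scaffold, averaged 48.2 and 39.0 CPM and did not pass.

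The Wnt7 co-receptors were sparse. adgra2, which had too few UMIs in this comparison to be tested, was at 29.0, 16.1, 53.9 and 28.9 CPM in brain capillary-like cells (37 UMIs), against 18.9, 16.1, 18.5 and 9.45 CPM in the other blood endothelial cells (54 UMIs). Its mean was 32.0 ± 15.8 CPM in brain capillary-like cells, the highest of the 5 named endothelial classes, before arterial-like (17.6 ± 7.67 CPM), venous-like (14.5 ± 9.33 CPM), lymphatic-like (10.8 ± 9.74 CPM) and endocardial-like cells (6.12 ± 2.51 CPM). Each neighbour in that order overlapped in its range over libraries. An adgra2 UMI was found in 18.2% of brain capillary-like cells (12.9 to 24.6%), against 0 of 184 erythrocyte-like cells, which allows a share of up to 1.63%, and with cells thinned to 1000 UMIs the share was 1.13%.

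reck, which encodes the membrane-anchored partner of Adgra2, had 9 UMIs in brain capillary-like cells (4.83, 2.01, 5.98 and 12.4 CPM) and 13 in the other blood endothelial cells (4.53, 6.18, 1.85 and 1.58 CPM). The highest mean for reck was in lymphatic-like cells (8.04 ± 5.89 CPM) and the lowest in venous-like cells (3.81 ± 4.74 CPM), and all 5 classes overlapped. Its depth cannot show a difference between these classes.

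**Figure D2:**
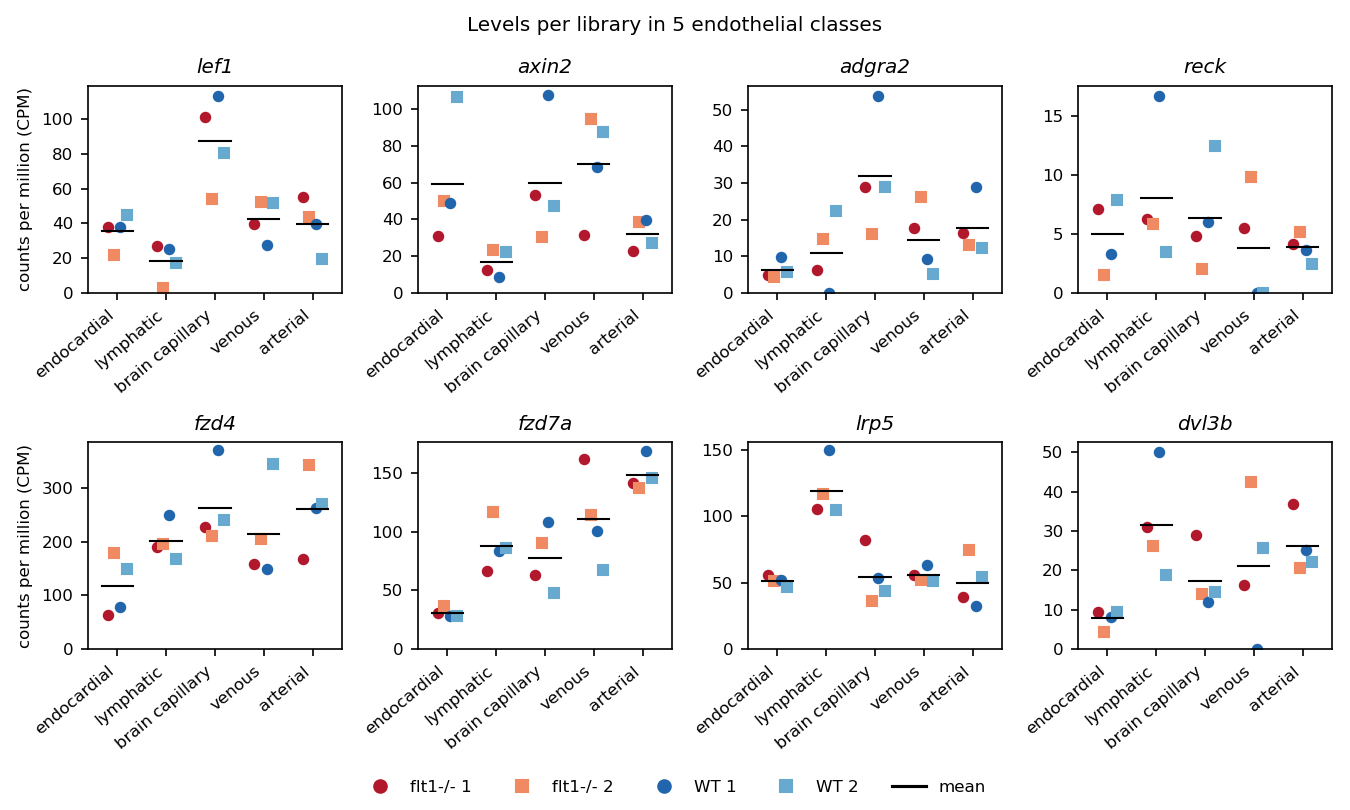
CPM of 8 Wnt pathway genes in 5 endothelial classes, with 1 point per library (red and orange flt1-/-, blue and light blue WT) and a line at the mean. For lef1 the mean is highest in brain capillary-like cells (87.5 CPM) and lowest in lymphatic-like cells (18.0 CPM), and for lrp5 it is highest in lymphatic-like cells (119 CPM).

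A wider list of Wnt pathway genes, which the symbol rule does not cover, was read beside the members. It had 89 genes, of which 83 were measured. Here and below, it was not counted how many of them had enough UMIs only through the cells in which they were higher. Calls and counts of the wider list are therefore a description only. In brain capillary-like cells 2 of the 32 tested rose and 4 fell, beside 5.36% higher and 4.7% lower over all genes tested. The genes that rose were ccnd1, a cyclin and pathway target (log2 1.33), and tmem88b, a paralog of a Dishevelled-binding inhibitor (log2 0.81). Those that fell were the receptor tnfrsf19 (log2 -2.44), the co-repressor tle3b (log2 -1.33), the pseudoreceptor bambia (log2 -1.03) and the feedback inhibitor nkd1 (log2 -0.69).

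Endocardial-like cells carried a set of Wnt ligands that was nearly undetected in blood endothelial cells. wnt7aa, a ligand of the Wnt7 family, was at 55.8 and 49.8 CPM in flt1-/- and 14.7 and 47.3 CPM in WT endocardial-like cells, against 0.653, 0, 0 and 0 CPM in blood endothelial cells. These were 150 UMIs against 1 UMI, a ratio of 205 with a counting interval of 36.3 to 8170. The 150 UMIs lay in 47 of 369 cells, with up to 14 in 1 cell. Counting intervals of ratios, here and below, treat each UMI as independent and leave out the spread between cells and libraries. wnt4, which in mammals acts in kidney and gonad development, was at 65.2, 33.7, 101 and 16.6 CPM in endocardial-like cells, against 0, 0, 1.41 and 1.79 CPM in blood endothelial cells (161 against 3 UMIs, a ratio of 73.5, counting interval 24.7 to 360). For both genes every endocardial-like value was above every blood endothelial value.

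wnt9b followed the same order with fewer UMIs. It was at 26.1, 11.7, 11.5 and 7.88 CPM in endocardial-like cells, against 0.653, 0, 0 and 0 CPM in blood endothelial cells (47 UMIs against 1, a ratio of 64.4, counting interval 11 to 2600), and it stayed below the filter on low counts. Wnt9b in zebrafish and mouse has been linked to blood flow and valve formation.

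3 further ligands were found in blood endothelial cells of all 4 libraries and were higher in endocardial-like cells. wnt5b, a ligand mostly known for signalling that does not use β-catenin, was at 18.98, 41.0, 19.6 and 36.3 CPM in endocardial-like cells, against 5.87, 5.36, 7.06 and 8.04 CPM in blood endothelial cells (log2 2.26, SE 0.325, adjusted p = 3.04e-05 by edgeR). wnt9a was at 17.8, 45.4, 34.4 and 47.3 CPM in endocardial-like cells, against 15.0, 16.1, 12.7 and 10.7 CPM in blood endothelial cells (log2 1.49, SE 0.291, adjusted p = 0.000626). wnt11, another ligand of the β-catenin-independent branch, was at 18.98, 57.1, 45.8 and 100 CPM, against 15.0, 30.6, 31.1 and 29.5 CPM (log2 1.16, SE 0.24, adjusted p = 0.00109). All 3 were higher in 4 of 4 libraries, and for wnt11 the ranges of the groups overlapped. The wnt9a call did not hold at a higher clustering resolution (log2 0.52, adjusted p = 0.107 by edgeR). Venous-like cells, which are part of the blood endothelial cells, averaged 87.8 CPM of wnt11, above the 55.5 CPM of endocardial-like cells. Their subcluster led by lyve1a averaged 32.8 CPM of wnt5b and 12.9 CPM of wnt9a. The one led by cxcl12a and sele averaged 0.946 and 43.6 CPM (n = 2). Endocardial-like cells averaged 29.0 CPM of wnt5b and 36.2 CPM of wnt9a.

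On the receiving side, endocardial-like cells had lower levels of several receptors. fzd7a was at 30.8, 36.6, 27.8 and 28.4 CPM in endocardial-like cells, against 138, 114, 129 and 88.5 CPM in blood endothelial cells (log2 -1.76, SE 0.182, adjusted p = 7e-07 by edgeR). fzd4 averaged 118 ± 55.3 CPM against 242 ± 46.7 CPM (log2 -0.95, adjusted p = 0.000221). adgra2 was at 4.75, 4.39, 9.82 and 5.52 CPM, against 20.2, 16.1, 26.8 and 17.9 CPM (log2 -1.60, adjusted p = 0.0015). Each was lower in all 4 libraries.

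Of the remaining called genes, dvl3b, a Dishevelled gene, was at 9.49, 4.39, 8.18 and 9.46 CPM in endocardial-like cells, against 24.2, 26.8, 14.1 and 20.6 CPM in blood endothelial cells (log2 -1.27, adjusted p = 0.00778). Without the second flt1-/- library its adjusted p was 0.0724 and in DESeq2 it was 0.0657. fzd6, a Frizzled receptor of planar polarity, was at 8.30, 4.39, 6.54 and 14.2 CPM, against 20.9, 20.7, 18.4 and 21.4 CPM (log2 -1.09, adjusted p = 0.0201). Its call did not hold without either flt1-/- library (adjusted p = 0.0602 and 0.111), without the first WT library (0.0606) or in DESeq2 (0.104).

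In all, 18 members were tested between endocardial-like and blood endothelial cells, and 5 were higher and 5 lower. Of these 10, 6 passed the filter on low counts only through the cells in which they were higher (wnt4, wnt5b and wnt7aa in endocardial-like cells, adgra2, dvl3b and fzd6 in blood endothelial cells). These 6 calls and the counts are therefore a description only. Over the 6755 genes tested, 15.2% were higher and 14.9% lower in endocardial-like cells, and the median log2 difference was -0.16 over the members and -0.01 over all genes. lef1 averaged 35.6 CPM in endocardial-like and 49.8 CPM in blood endothelial cells, axin2 59.0 and 46.8 CPM and lrp5 51.5 and 51.3 CPM, and none of these 3 passed.

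**Figure D3:**
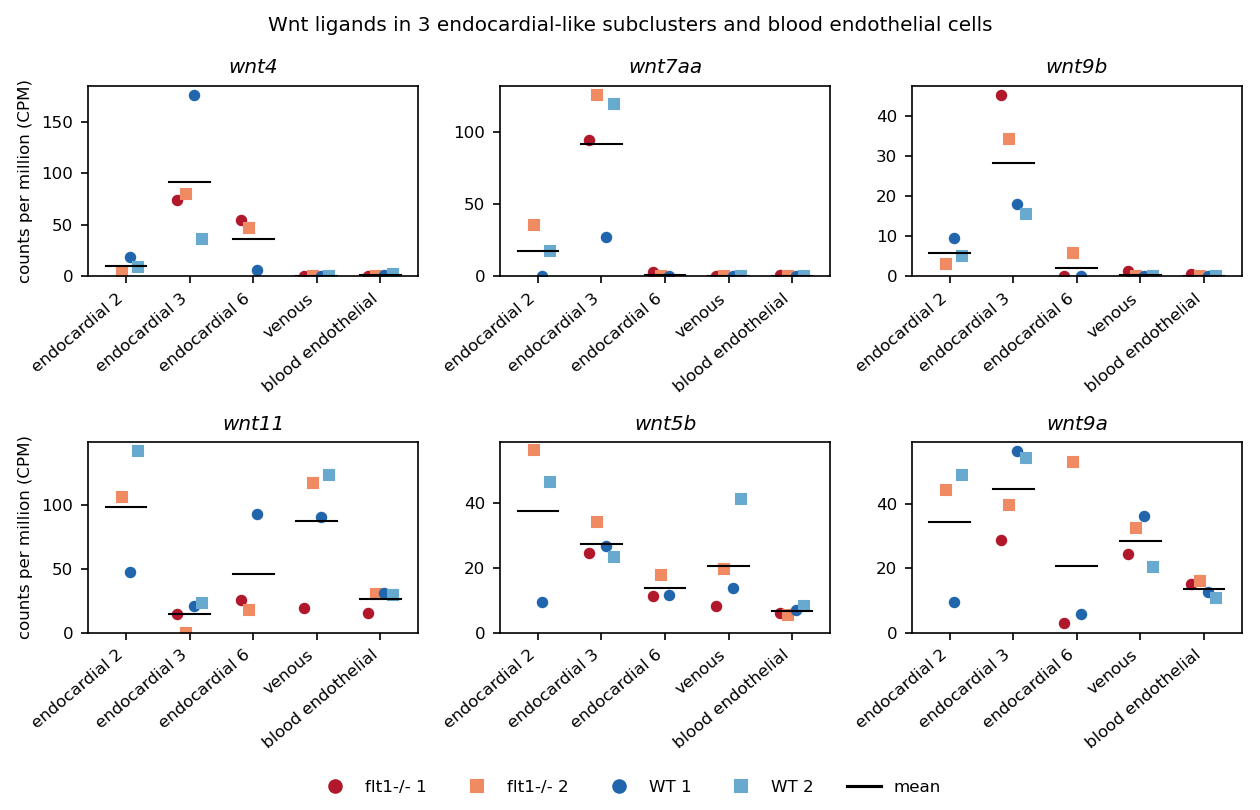
CPM of 6 Wnt ligands per library in 3 endocardial-like subclusters (2, 3 and 6), venous-like cells and all blood endothelial cells, with a line at the mean and no point where a library had fewer than 10 cells. wnt7aa and wnt9b have their highest mean in endocardial subcluster 3 (91.5 and 28.2 CPM), and wnt11 in endocardial subcluster 2 (98.9 CPM) and venous-like cells (87.8 CPM).

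The endocardial-like cells formed 3 subclusters, defined without the members, and these differed in which ligand they carried. Subcluster 3, with 131 cells and led by spp1 and alcama, averaged 91.5 CPM of wnt4, 91.4 CPM of wnt7aa and 28.2 CPM of wnt9b. Subcluster 2, led by hapln1b and irx5a, averaged 10.3 CPM of wnt4, 17.7 CPM of wnt7aa and 5.85 CPM of wnt9b, but 98.9 CPM of wnt11 against 14.6 CPM in subcluster 3. Subcluster 6, with 106 cells and led by bmp10 and epoa, had no endocardial marker 2-fold higher than in the other endothelial cells and took its name from the endocardial-like cluster it came from. It had 35.8 CPM of wnt4, and wnt7aa and wnt9b had 1 UMI each in it.

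Subcluster 2 also had the highest axin2 (115 CPM, against 53.7 CPM in subcluster 3 and 20.3 CPM in subcluster 6) and the highest fzd4 (187 CPM, against 78.4 and 76.8 CPM). Its cells numbered 1 and 42 in the flt1-/- libraries, against 15 and 74 in the WT libraries, the same order as the wnt11 level of the whole class, and the part of this mix in the wnt11 difference was not tested. The differences between subclusters were not tested either. Without subcluster 6, an alternative added after seeing the data, the same 10 members were called between endocardial-like and blood endothelial cells, in the same directions.

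Among the 369 endocardial-like cells, 65 had a wnt4 UMI, 47 a wnt7aa UMI and 32 a wnt9b UMI. Of the cells with a wnt9b UMI, 56.2% also had wnt4 (18 cells, 27.7% of those with wnt4) and 37.5% also had wnt7aa (12 cells, 25.5% of those with wnt7aa). wnt4 and wnt7aa were found together in 14 cells, 21.5% of the cells with wnt4 and 29.8% of those with wnt7aa. In erythrocyte-like cells wnt4 had a UMI in 2.72% and wnt7aa in 1.09% of cells, against 17.6% and 12.7% of endocardial-like cells. All 5 erythrocyte-like cells with a wnt4 UMI were among the 50 of the second flt1-/- library, so for wnt4 this level comes from 1 library. After thinning to 1000 UMIs the endocardial-like shares were 4.38% for wnt4 and 2.47% for wnt7aa, and the erythrocyte-like shares were 1.09% and 0%.

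Markers of other cell types moved with the endocardial-like class. Summed over the list, 8 muscle markers gave 272 to 437 CPM per library in endocardial-like cells and 1.53 to 12.4 CPM in blood endothelial cells, with nppa and tnnt3a at 0 in endocardial-like cells, and 10 mesenchymal markers at 760 to 1220 CPM against 65.2 to 85.7 CPM. The 9 epithelial markers gave 2350 to 3770 CPM against 2950 to 3660 CPM. Their part in the ligand levels was not tested.

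The wider list had 7 genes higher and 10 lower of 39 tested in endocardial-like cells, beside 15.2% higher and 14.9% lower over all genes. As above, these calls are a description only. rspo2, a secreted enhancer of Wnt signalling, had 446 UMIs against 2 in blood endothelial cells, a ratio of 306 with a counting interval of 84.1 to 2530. kremen1, a Dickkopf receptor (log2 2.76), gpc4, a heparan sulphate proteoglycan (log2 1.01), and ctnnb1, β-catenin itself (log2 0.37), also rose. dact2 (log2 -2.52) and apc, a part of the destruction complex (log2 -1.81), fell.

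Lymphatic-like cells had more lrp5 and less lef1 and axin2 than blood endothelial cells. lrp5, the co-receptor of Frizzled proteins, was at 105, 117, 150 and 105 CPM in lymphatic-like cells, against 53.5, 54.4, 48.0 and 49.1 CPM in blood endothelial cells, with no overlap (log2 1.17, SE 0.201, adjusted p = 0.00021 by edgeR). lef1 was at 26.9, 2.92, 25.02 and 17.2 CPM, against 51.6, 45.9, 50.8 and 50.9 CPM (log2 -1.51, SE 0.349, adjusted p = 0.00321). axin2 was at 12.4, 23.3, 8.34 and 22.3 CPM, against 32.0, 47.5, 62.1 and 45.6 CPM (log2 -1.25, SE 0.322, adjusted p = 0.00767). All 3 differences had the same direction in 4 of 4 libraries. Low lef1 and axin2 were also found within blood endothelial cells. The venous-like subcluster led by cxcl12a and sele averaged 23.4 and 24.1 CPM (n = 2), against 18.0 and 16.6 CPM in lymphatic-like cells. An arterial-like subcluster led by lhx8a averaged 49.6 and 16.4 CPM (n = 3). The venous-like subcluster led by lyve1a was higher, at 57.8 and 105 CPM.

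wnt9a was at 33.1, 102, 16.7 and 18.9 CPM in lymphatic-like cells, against 15.0, 16.1, 12.7 and 10.7 CPM in blood endothelial cells (log2 1.56, SE 0.371, adjusted p = 0.00415). This value rested on few cells. Without the second flt1-/- library it was 0.92 (adjusted p = 0.163), and at a higher clustering resolution it turned to -0.60 (adjusted p = 0.397), when 12 of the 142 lymphatic-like cells were placed with venous-like cells and took 41 of the 64 wnt9a UMIs with them. wnt4, wnt5b, wnt7aa and wnt9b had 0 UMIs in the 142 lymphatic-like cells, which for each allows a share of cells with a UMI of up to 2.11%.

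Of 14 members tested between lymphatic-like and blood endothelial cells, 2 were higher and 2 lower, beside 9.42% higher and 10.9% lower over all 5595 genes. The median log2 difference was -0.40 over the members and -0.01 over all genes. wnt9a passed the filter on low counts only through lymphatic-like cells, and lef1 and axin2 only through blood endothelial cells. These calls are therefore a description only. Of 37 genes of the wider list, 6 rose and 8 fell. The planar polarity genes celsr1b (log2 4.27) and daam1b (log2 2.58) and the Lrp5 and Lrp6 inhibitor sost (log2 2.60) rose, and tmem88b (log2 -2.57), the co-repressor tle2a (log2 -1.60), ccnd1 (log2 -1.20) and the TCF genes tcf7l1b (log2 -1.36), tcf7l1a (log2 -1.08) and tcf7l2 (log2 -0.83) fell.

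**Figure D4:**
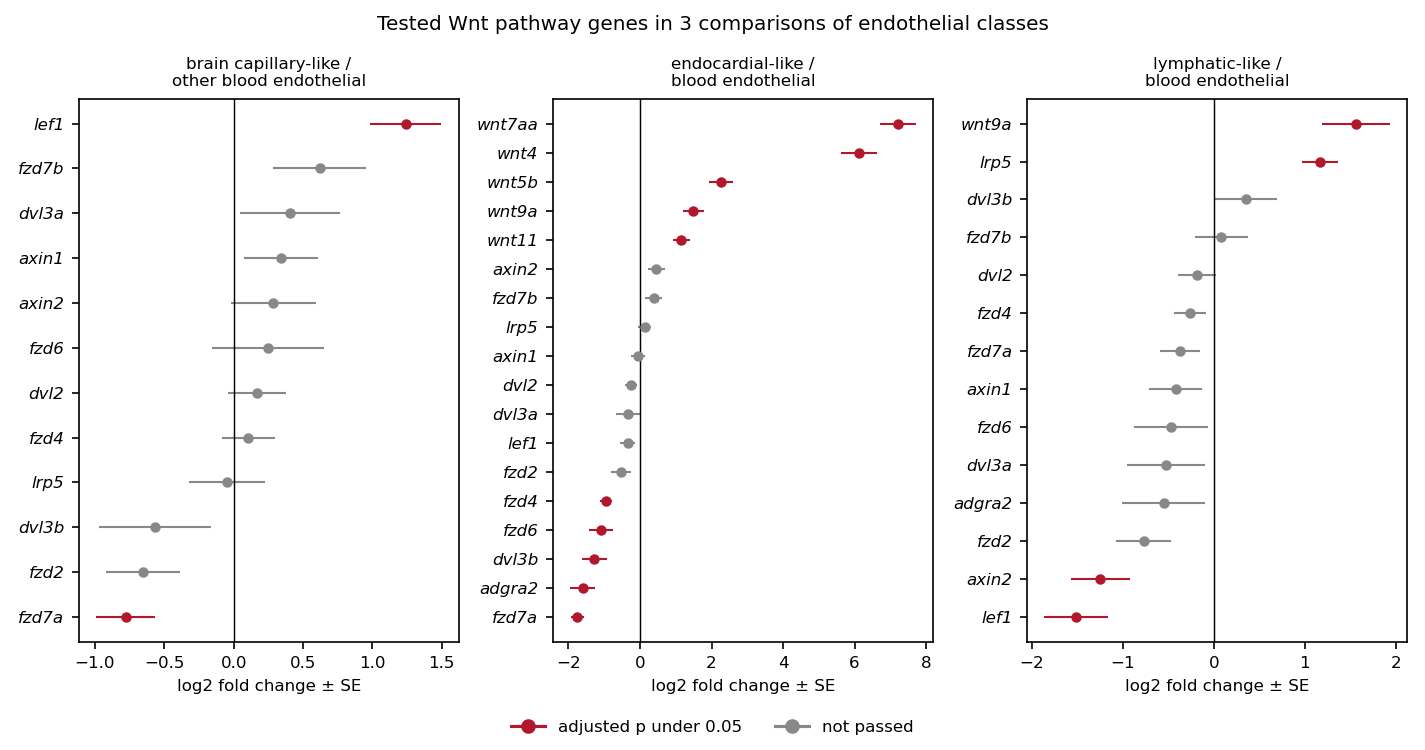
Log2 fold change with its SE (edgeR) of each tested Wnt pathway gene in 3 comparisons of endothelial classes, with genes at an adjusted p under 0.05 in red. In the endocardial-like panel the ligands wnt7aa, wnt4, wnt5b, wnt9a and wnt11 lie to the right (log2 1.16 to 7.20) and fzd7a, adgra2, dvl3b, fzd6 and fzd4 to the left (log2 -1.76 to -0.95).

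Between venous-like and arterial-like cells, 9 members could be tested and 1 was higher, beside 9.28% higher and 6.12% lower over all 3859 genes. That gene was axin2, at 31.3, 94.6, 68.3 and 87.5 CPM in venous-like cells, against 22.6, 38.7, 39.6 and 27.1 CPM in arterial-like cells. axin2 was higher in all 4 libraries (log2 1.16, SE 0.321, adjusted p = 0.0227 by edgeR), and the first flt1-/- library of the venous-like cells lay within the arterial-like range. The call did not hold without the second flt1-/- library (log2 1.05, adjusted p = 0.14), without the second WT library (log2 0.98, adjusted p = 0.105), in DESeq2 (adjusted p = 0.107) or with no upper limit on genes per cell (adjusted p = 0.133). axin2 had passed the filter on low counts only through venous-like cells, so this call is a description only. The 2 venous-like subclusters differed in axin2. The one led by lyve1a had 82.7, 121, 119 and 95.7 CPM, and the one led by cxcl12a and sele averaged 24.1 CPM (n = 2). The part of this mix in the axin2 difference was not tested. lef1 averaged 42.6 and 39.6 CPM and did not pass.

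Several members had too few UMIs in these cells to be tested and are given as values. wnt11 was at 19.1, 117, 91.0 and 124 CPM in venous-like cells, against 12.3, 5.16, 0 and 12.3 CPM among arterial-like cells. Within the venous-like class it averaged 146 CPM in the subcluster led by lyve1a and 2.84 CPM in the subcluster led by cxcl12a and sele, which gave most venous-like cells of the first flt1-/- library (64 of 101). dkk1a, a secreted blocker of Lrp5 and Lrp6, had 27 UMIs in venous-like cells and none in arterial-like cells, but they came from 4 of 196 cells and 18 of them from a single cell. wnt9a was at 24.5, 32.6, 36.4 and 20.6 CPM in venous-like cells (40 UMIs), against 8.21, 5.16, 0 and 4.93 CPM in arterial-like cells (8 UMIs), and wnt5b had 23 UMIs against 6. For both ligands the venous-like value exceeded the arterial-like one in each of the 4 libraries. They came mostly from different venous-like subclusters. The one led by cxcl12a and sele held 29 UMIs of wnt9a and 1 of wnt5b, and the one led by lyve1a held 11 and 22. dvl3a, a Dishevelled gene that could not be tested either, was lower in venous-like cells in all 4 libraries (17 against 42 UMIs). In the wider list, 4 of 28 genes rose in venous-like cells and none fell (celsr1a log2 2.55, gpc4 log2 1.55, wls, which is needed for Wnt secretion, log2 1.09, and tle2a log2 0.91). Over all genes tested, 9.28% rose and 6.12% fell.

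Endothelial cells as a whole were set against the blood cells caught in the same sort. Of 24 members tested, 22 were higher in endothelial cells and 1 lower, beside 33.5% higher and 36.3% lower over all 11673 genes, with a median log2 difference of 4.59 over the members and -0.10 over all genes. Of the 23 called, 19 passed the filter on low counts only through the cells in which they were higher. Of these, 18 passed through endothelial cells and tcf7 through blood cells. These 19 calls, which include fzd4, lef1, adgra2 and dvl2, are therefore a description only. The count and the median are a description too, and not support for a difference of the list. fzd4 was at 153, 237, 179 and 202 CPM in endothelial cells, against 1.12, 2.72, 1.32 and 2.81 CPM in blood cells (log2 6.11, adjusted p = 3.12e-08 by edgeR). lef1 averaged 38.4 CPM in endothelial and 0.309 CPM in blood cells, adgra2 14.0 and 0.105 CPM, and dvl2 74.8 and 1.42 CPM. These are the receptor, the nuclear factor, the brain co-receptor and a relay protein, and each was higher in 4 of 4 libraries. wnt9b had 48 UMIs in endothelial cells and none in blood cells, at least 86.6-fold higher with a floor of 3 UMIs over the blood cells, and it lay above the median of the members at that bound too.

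The called genes with the smallest differences were dkk3b, a Dickkopf relative (log2 1.23), fzd6 (log2 1.85) and axin2 (log2 2.35). axin1 was the member that did not pass, at 31.1, 50.1, 33.8 and 35.0 CPM in endothelial cells, against 20.3, 28.8, 13.8 and 20.9 CPM in blood cells (log2 0.33, SE 0.163, adjusted p = 0.0997 by edgeR). The CPM contrast was larger than the tested value. CPM is scaled to total UMIs only, while the log2 value also uses the size factors of edgeR.

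tcf7, a TCF factor known for its role in T cells, was the member that was lower in endothelial cells. It was at 0.684, 0.380, 0 and 1.23 CPM in endothelial cells, against 7.40, 12.5, 5.83 and 12.2 CPM in blood cells (7 against 543 UMIs). Lymphoid-like cells had 15.0, 27.5, 13.7 and 25.5 CPM, and 27.8% of 1140 of them had a tcf7 UMI, against 0.543% of erythrocyte-like cells. Thinned to 1000 UMIs the lymphoid-like share was 2.58%.

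Among the wider list, 43 of 57 genes tested were higher and 2 lower in endothelial cells than in blood cells. Over all genes tested, 33.5% were higher and 36.3% lower. How many genes of the wider list passed the filter on low counts through 1 side only was not counted. tmem88a (log2 8.04), nkd1 (log2 6.96) and wls (log2 4.55) were among those that were higher, and tle3b (log2 -2.07) and tnikb (log2 -1.21) were lower.

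Cells that were neither endothelial nor blood (1020 epithelial-like, 187 cartilage-like and 121 neural-like) were set against endothelial cells next. sfrp2, a secreted Frizzled-related inhibitor, was at 20.9, 97.6, 44.6 and 111 CPM in other cells, against 1.37, 1.52, 0.662 and 1.23 CPM in endothelial cells (650 against 13 UMIs). Nearly all of it came from cartilage-like cells (636 UMIs), where 40 of 187 cells had it and 1 cell held 153 UMIs. The cluster with this name was high for 4 of 4 cartilage markers and also for 9 of 10 mesenchymal markers, so the name does not exclude mesenchymal cells. sfrp1a was at 11.3, 15.0, 12.6 and 16.3 CPM, against 1.37, 0.759, 0 and 0.615 CPM (168 against 8 UMIs), and was highest in neural-like (81.7 ± 59.6 CPM, n = 3) and cartilage-like cells (48.1 ± 25.3 CPM, n = 4).

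Among the Frizzled genes, fzd10 (log2 2.77), fzd8a (log2 2.32), fzd3a (log2 1.81), fzd7a (log2 0.71) and fzd7b (log2 0.58) were higher in other cells, and fzd4 (log2 -1.58) and fzd6 (log2 -1.41) were lower. fzd3a, a receptor of neuronal planar polarity, was at 51.5, 59.1 and 93.4 CPM in the neural-like cells of the 3 libraries that had enough of them. fzd8a was at 31.6, 63.0, 21.5 and 47.9 CPM in other cells, against 8.21, 7.59, 9.94 and 8.91 CPM in endothelial cells, and fzd4 at 37.8, 67.3, 61.4 and 76.7 CPM against 153, 237, 179 and 202 CPM. Neither gene overlapped between the groups. Classes within the groups differed, however. fzd4 averaged 48.3 CPM in epithelial-like but 128 CPM in cartilage-like cells, near the 118 CPM of endocardial-like cells. fzd7a averaged 122 CPM in other cells, against 82.1 CPM in all endothelial cells and 117 CPM in blood endothelial cells.

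The co-receptors of the brain endothelial pathway were lower outside the endothelium. adgra2 was at 2.51, 1.63, 1.57 and 4.79 CPM in other cells, against 13.0, 12.2, 17.2 and 13.5 CPM in endothelial cells (log2 -2.36, SE 0.344, adjusted p = 0.00047 by edgeR). reck was at 0.279, 0.326, 1.57 and 3.83 CPM, against 5.47, 3.80, 4.64 and 6.15 CPM (log2 -2.27, SE 0.595, adjusted p = 0.0122). dvl3b (log2 -1.88) and wnt4 (log2 -2.54) were also lower, and lef1, axin2, lrp5 and dvl2 did not pass.

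Of the Wnt7 ligands that act on brain vessels, wnt7aa averaged 20.3 ± 11.5 CPM in epithelial-like cells and 24.3 ± 21.7 CPM in neural-like cells (n = 3), and wnt7bb 13.0 ± 7.69 CPM in epithelial-like cells and 7.92 ± 13.7 CPM in neural-like cells. wnt7bb had 180 UMIs in other cells and 0 in endothelial cells. wnt7ab and wnt7ba had 9 and 5 UMIs in all kept cells.

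In this comparison 27 members were tested, 8 were higher and 6 lower, beside 24.1% higher and 22.3% lower over all 10514 genes, and the median log2 difference was 0.07 over the members and 0.02 over all genes. Of the 14 called, 8 passed the filter on low counts only through the cells in which they were higher (sfrp1a, sfrp2, fzd3a and fzd10 in other cells, fzd6, adgra2, wnt4 and reck in endothelial cells). These 8 calls are therefore a description only. wnt9a (log2 0.71, adjusted p = 0.0356) was also higher in other cells. Its call did not hold without either flt1-/- library (adjusted p = 0.2 and 0.0793) or without the second WT library (0.0555), and that of fzd7b did not hold without the first flt1-/- library (0.0943) or the second WT library (0.0696). Of the wider list, 23 of 59 genes were higher, among them the secreted inhibitors wif1 (log2 4.29) and sostdc1a (log2 2.85), and 14 were lower.

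Between genotypes, no member passed the test. In blood endothelial cells, 0 of 18 members tested and 0 of all 7716 genes (0%) had an adjusted p under 0.05 in edgeR, at an unadjusted p under 0.05 there were 0 members and 293 genes, and DESeq2 called 0 members and 5 genes. lef1 averaged 48.8 CPM in flt1-/- and 50.9 CPM in WT blood endothelial cells (log2 -0.10, SE 0.29), and fzd4 224 and 260 CPM (log2 -0.29, SE 0.277). lrp5 was at 53.5 and 54.4 CPM in flt1-/- cells, against 48.0 and 49.1 CPM in WT cells.

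In brain capillary-like cells, 0 of 12 members and 0 of 4069 genes (0%) passed in edgeR, with 0 members and 150 genes at an unadjusted p under 0.05 and 0 members and 1 gene in DESeq2. axin2 was at 53.2 and 30.2 CPM in flt1-/- cells, against 108 and 47.5 CPM in WT cells (log2 -0.91, SE 0.565). adgra2 was at 29.0 and 16.1 CPM in flt1-/- cells, against 53.9 and 28.9 CPM in WT cells (log2 -0.91, SE 0.628), and lef1 at 102 and 54.3 CPM against 114 and 80.6 CPM (log2 -0.40, SE 0.437). These 3 overlapped between genotypes. dvl2 was at 101.5 and 106.5 CPM in flt1-/- cells, against 71.8 and 70.2 CPM in WT cells (log2 0.51, SE 0.315). axin1 was at 53.2 and 62.3 against 35.9 and 41.3 CPM (log2 0.53, SE 0.373), and fzd4 at 227 and 211 against 371 and 242 CPM (log2 -0.53, SE 0.339). For dvl2, axin1 and fzd4 the genotypes did not overlap, and none passed in edgeR. With 2 libraries each, such a separation can easily come from the order of the libraries alone. How many of all genes separated in this way was not counted, so it is no result about these 3 genes. Differences of this size could not be told from the spread between libraries.

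The difference between brain capillary-like and other blood endothelial cells was also compared between genotypes with an interaction term. 0 of 12 members and 0 of 5019 genes (0%) passed in edgeR, 0 members had an unadjusted p under 0.05, and the lowest adjusted p among the members was 0.998. For lef1 the interaction was -0.85 on the log2 scale (SE 0.501, flt1-/- minus WT). The excess of lef1 in brain capillary-like cells was 57.7 and 13.5 CPM in the flt1-/- libraries, against 82.3 and 52.2 CPM in the WT libraries.

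**Figure D5:**
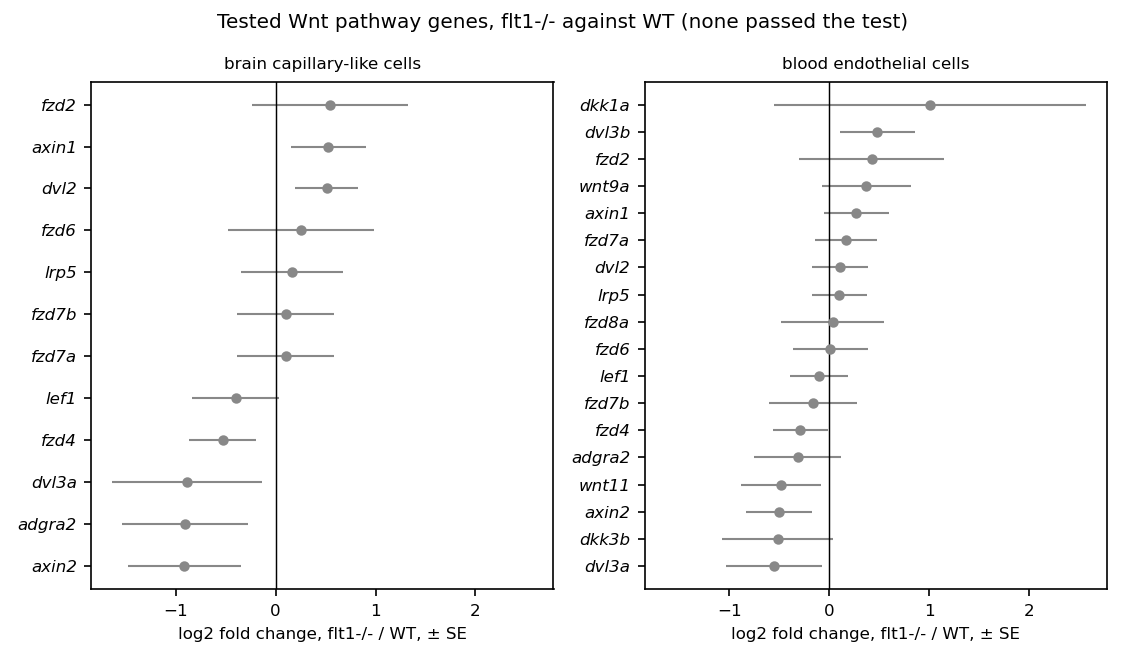
Log2 fold change (flt1-/- over WT) with its SE (edgeR) of each tested Wnt pathway gene, in brain capillary-like cells (12 genes, left) and in blood endothelial cells (18 genes, right). No gene had an adjusted p under 0.05; axin2 in brain capillary-like cells lies at -0.91.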

How the data were processed

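The labels give a 10x Genomics 3′ assay of GFP+ cells, and the labels and the study's methods name different versions of the chemistry (v2 and v3). Per the file headers and the labels, the deposited values are raw UMI counts per gene and called cell, made by the authors with Cell Ranger on the GRCz11 zebrafish genome, without normalization. Depth is 16828951 to 33837917 UMIs per library, and the levels of sparse genes carry the counting error of few UMIs. No gene coordinates or sequences are printed, because the gene table used here is of another build.

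Cells with over 200 and under 4500 genes and under 5% mitochondrial UMIs were kept. No doublet caller was run. Cells were clustered with Seurat 5.3.0 (2000 variable genes without the members and the wider list, 20 principal components, resolution 0.5, and 1 for endothelial cells). Clusters with at least 7 pan-endothelial markers at least 2-fold higher were endothelial. Other clusters and endothelial subclusters took the type with the largest share of its markers at least 2-fold higher, with at least 3 such markers. Ties stayed unnamed, as did clusters whose leading genes pointed more to another type. An endothelial subcluster without a name took an endocardial name from its parent cluster (subcluster 6). Blood endothelial cells were the brain capillary-like, arterial-like and venous-like cells and an unnamed subcluster of 43 cells from a parent of mainly such cells. Some thresholds of this naming were set after the clusters were seen. Names may differ from those of the study.

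UMIs were summed per library and class (at least 10 cells) and tested with the quasi-likelihood F-test of edgeR 4.0.16 (TMM, filterByExpr, two-sided, Benjamini-Hochberg over all genes tested, threshold 0.05), with library as a block between classes and genotype alone between genotypes. The SE was obtained by dividing the size of the log2 value by the root of its F statistic. Classes come from the same cells that were compared. Shares of cells carry exact Clopper-Pearson 95% intervals (for a share of 0, a limit of 3 counts), with thinning to 1000 UMIs. Alternatives were DESeq2 1.42.0, RLE size factors, no filter, at least 20 cells, 30 principal components, a higher resolution, no upper gene limit, a top 25% marker score, thinning to 2000 UMIs, each library left out, and a replicate block. Named genes were a fixed set (adgra2, reck, lef1, tcf7, lrp5, lrp6, axin1, axin2, fzd4 and the Wnt7 genes), members past the threshold and the 5 highest members per class, and wnt9b, dkk1a and, in venous-like cells, wnt11, wnt9a, wnt5b and dvl3a were singled out after their values were seen. The members and lists were chosen with earlier results of these data known. The test script was checked on simulated data.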

Additional observations from a re-analysis of the deposited data

How the results depend on the processing

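For brain capillary-like against other blood endothelial cells, 2 members were called, 1 with DESeq2, 5 with no filter on low counts, 0 against venous-like cells only, and 1 to 2 when each library was left out. For venous-like against arterial-like cells, 1 was called, 0 with DESeq2, 5 with no filter, 2 at the higher clustering resolution, 0 with no upper limit on genes per cell, and 0 to 2 when each library was left out. For other cells against endothelial cells, 14 were called, 23 with no filter and 12 to 16 when each library was left out. Endothelial against blood cells gave 23, and 32 with no filter. The leave-one-out counts were 8 to 10 for endocardial-like (10 called), 3 to 6 for lymphatic-like (4 called) and 23 to 26 for endothelial cells (23 called), and 0 for both genotype comparisons. wnt9a in lymphatic-like cells turned to -0.60 at the higher clustering resolution. Of 991 alternative values for single members, 965 kept their side of the threshold, 24 lost the call and 1 gained it. The remaining 1 turned round, which was counted only where a value passed. Some values that did not pass also changed sign, as axin1 did in brain capillary-like cells with the marker score (log2 0.34 to -0.06). The RLE size factors moved the median of all genes by at most 0.0615 on the log2 scale.

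With the replicate number as a block, 0 members were called in both genotype comparisons, as without it. Same-numbered libraries deviated together (r = 0.404 over 7716 genes), but with 2 pairs the numbers do not show a pairing. Thinned to 2000 UMIs, brain capillary-like shares were 5.29% for adgra2, 1.18% for reck and 38.8% for fzd4. Sparse genes such as reck and lrp6 are limited by depth, and 2 libraries per genotype limit the genotype tests.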

Other observations

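Endothelial cells in an unnamed cluster of 54 cells, led by vegfba and ccdc141 and with at least 10 cells in 1 library of each genotype, averaged 86.8 ± 9.46 CPM of dvl3b (SD, n = 2), against 21.4 ± 5.49 CPM in blood endothelial cells (n = 4), and 113 ± 23.3 CPM of axin2, against 46.8 ± 12.3 CPM. These differences were not tested. The ligand wnt2 had 37 UMIs in 13 of 245 thrombocyte-like cells, 10 of them in a single cell, with 7.29 and 5.19 CPM in the flt1-/- libraries, against 47.6 and 16.4 CPM in the WT libraries, and 0 UMIs in endothelial cells. dkk1b was nearly confined to epithelial-like cells among the classes examined, with 128 UMIs there (2.74 and 31.7 CPM in flt1-/-, against 9.05 and 28.6 CPM in WT libraries) and 1 UMI in endothelial cells.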
